A study of Mus musculus with 80 samples.

Results

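The 6 genes described here are the immediate-early transcription factors of the Egr family (Egr1, Egr2, Egr3) and of the Nr4a family (Nr4a1, Nr4a2, Nr4a3). They were listed by gene symbol, with no cut on their values, but with earlier results of these data known. They make up 6 of the 15919 genes in the table of the sort comparison (48 libraries) and 6 of the 16000 genes in the table of the cell preparation comparison (32 libraries). All 80 libraries came from the brains of Cx3cr1-NuTRAP mice, genotype Cx3cr1(Jung)-cre/Ert2+;NuTRAP+, both sexes, adult at harvest, that had all received tamoxifen (100 mg/kg) at about 3 months of age. In these mice a tamoxifen-dependent Cre under the Cx3cr1 promoter switches on an eGFP-tagged ribosomal protein in Cx3cr1+ cells, which in brain are microglia and other resident macrophages. Each preparation gave an Input library, from the lysate (for the sorts, the lysate of the sorted cells), and a TRAP library, from the ribosomes pulled down with an anti-GFP antibody, so that Input held the RNA of all cells in the preparation and TRAP the ribosome-bound RNA of the tagged cells. No mouse without tamoxifen or Cre was among these libraries.

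In the sort comparison, Tissue was a hemisphere homogenized directly in cold lysis buffer (n = 4 mice) and Cell was a suspension made with papain enzymes at raised temperature (n = 4, the other hemisphere of the same mice). The same kind of suspension was sorted by CD11b magnetic beads (autoMACS, n = 4), by beads followed by cartridge sorting (autoMACS to Tyto, n = 3), by cartridge sorting (Tyto, n = 5) or by cytometer (FACSAria, n = 4). The FACS methods gated CD11b+CD45+eGFP+ cells. In the cell preparation comparison, Cell (-) Inhibitors was the enzymatic suspension, Cell (+) Inhibitors the same with actinomycin D, triptolide and anisomycin present during the warm dissociation (n = 4 mice, each giving one hemisphere to each arm), Dounce was a mechanical suspension kept at 4 °C and cleared of myelin on Percoll (n = 4), and Tissue was new libraries of the Tissue mice (n = 4). The enzymatic suspensions were cleared of myelin debris as well, by a debris removal solution. The study states that RNA from Dounce-Input needed a whole brain, and the other preparations a hemisphere. Actinomycin D and triptolide block transcription, and anisomycin blocks translation.

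Immediate-early genes are transcribed within minutes of a stimulus from factors already present in the cell, such as the serum response factor SRF with its ternary complex partners, and CREB, both switched on by kinase cascades, so that new protein synthesis is not needed. Their transcripts are short-lived. EGR proteins are zinc finger activators that bind GC-rich sites and are restrained by the NAB corepressors. NR4A proteins are orphan nuclear receptors that bind DNA as monomers, as dimers or, for NR4A1 and NR4A2, with RXR. Both families are known as activity-regulated genes in neurons, and in macrophages and microglia as early genes of activation. NR4A2 is also known for the development and upkeep of midbrain dopamine neurons.

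In the deposited coordinates (mm10), Egr2 lies at chr10:67537869-67542188 (plus strand), Egr3 at chr14:70077445-70080157 (plus), Nr4a1 at chr15:101266846-101274794 (plus), Nr4a2 at chr2:57107226-57124003 (minus) and Nr4a3 at chr4:48051248-48083352 (plus). In the GENCODE vM21 annotation of the same build, 0 other genes overlapped any of the 6. The promoters are shown as a description of the genes, and whether they bear on the members' levels was not tested. The RefSeq promoter table (GRCm38.p6, the assembly behind mm10) held 4 of the 6 genes, and Egr1 and Egr3 were not among them. The 250 bases before the start were searched on both strands for TGACG, the core of the cyclic AMP response element (CRE) to which CREB binds, for the full CRE (TGACGTCA, which contains that core), and for the CArG box of SRF. The stretches are printed 5′ to 3′ on the gene's strand, with the core matches and the CArG box in capitals (a core match to the other strand reads CGTCA):
Egr2 (chr10:67537619-67537868, plus): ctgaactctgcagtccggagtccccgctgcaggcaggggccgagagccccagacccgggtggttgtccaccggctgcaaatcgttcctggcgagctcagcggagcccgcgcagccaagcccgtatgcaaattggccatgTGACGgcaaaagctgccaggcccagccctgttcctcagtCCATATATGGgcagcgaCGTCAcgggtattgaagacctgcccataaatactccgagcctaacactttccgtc
Nr4a1 (chr15:101266596-101266845, plus): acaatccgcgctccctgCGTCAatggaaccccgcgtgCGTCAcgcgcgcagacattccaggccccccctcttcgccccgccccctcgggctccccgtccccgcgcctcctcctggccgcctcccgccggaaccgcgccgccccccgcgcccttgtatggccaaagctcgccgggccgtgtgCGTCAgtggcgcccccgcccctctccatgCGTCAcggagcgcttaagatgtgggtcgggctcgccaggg
Nr4a2 (chr2:57124004-57124253, minus): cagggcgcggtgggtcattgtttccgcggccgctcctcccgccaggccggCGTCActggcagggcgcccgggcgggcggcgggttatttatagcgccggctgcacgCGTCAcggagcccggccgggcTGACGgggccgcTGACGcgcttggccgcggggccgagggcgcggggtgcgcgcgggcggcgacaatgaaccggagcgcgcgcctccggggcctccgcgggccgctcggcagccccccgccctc
Nr4a3 (chr4:48045055-48045152, plus): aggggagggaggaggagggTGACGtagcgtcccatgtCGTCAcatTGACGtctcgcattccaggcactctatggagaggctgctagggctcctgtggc

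All 3 Nr4a promoters held 4 matches to TGACG in the 250 bases, against 2 for Egr2. Over the 32817 promoter stretches of the table, 17.7% held at least 1 such match, 3.9% at least 2 and 0.137% at least 4. The only CArG box among the 4 genes was that of Egr2 (CCATATATGG, from 72 to 63 bases before the start), a motif found in 1.47% of all stretches. None of the 4 held a full CRE (1.55% of all stretches). For Nr4a3 the RefSeq start lies 5943 bases before the deposited start, and 152 of its 250 bases are left out above because the GENCODE annotation places an exon there, which takes the Nr4a3 matches shown to 3. For Egr2 the table gave 5 starts, and the one at the deposited start was used. A match is a description of the letters and not a site shown to be bound.

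Egr1 lies on mouse chromosome 18 (34861207 to 34864956, plus strand), and its sequence is not shown.

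Library totals ran from 7129464 to 20168116 counts in the sort comparison and from 2471448 to 14650287 in the cell preparation comparison, the lowest being those of Dounce-TRAP (2471448 to 4724538). Levels are normalised read counts in CPM, with library sizes scaled by the TMM method. For levels and marker sums, Input and TRAP were scaled apart, so small gaps in CPM between the fractions cannot be read as differences. The labels were checked against microglial markers. The summed CPM of 6 of 6 microglial markers (such as Tmem119 and P2ry12) was 26886 to 38404 in the TRAP libraries of suspensions and sorts of the sort comparison, 26421 to 34408 in those of the cell preparation comparison, and 3959 to 5604 in Tissue-TRAP over both comparisons. The summed CPM of 6 of 6 neuronal markers (such as Snap25) was 4524 to 6633 in Tissue-TRAP, 956 to 1725 in Dounce-TRAP, 44.6 to 294 in TRAP of enzymatic suspensions and 3.12 to 8.51 in TRAP of sorted cells. Tissue-TRAP thus carried neuronal RNA at close to the level of Tissue-Input (5325 to 7298), and all 6 members are genes that neurons can also express. In bulk RNA, fewer cells of a type and less RNA per cell cannot be told apart.

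The inhibitor comparison asked how each transcript's level differed when transcription and translation inhibitors were present together during the warm dissociation, with suspensions of the same 4 mice on either side. The drugs were given together and their effects cannot be told apart. A gene was called where the adjusted p of edgeR's quasi-likelihood test (Benjamini-Hochberg over all genes) was under 0.1 and the fold change above 2. In TRAP, 4 of the 6 members were called lower with inhibitors, against 0.632% of all genes called lower (93 of 14723). They were the 3 Egr genes and Nr4a1. Nr4a2 and Nr4a3 were not called, and no member was called higher.

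Egr1, the most abundant of the 6, stood at 3280, 4075, 2141 and 2186 CPM in Cell (-) Inhibitors-TRAP of mice 1361, 1362, 156 and 157. With inhibitors the same mice gave 16.6, 30.4, 22.2 and 24.3 CPM. Every library without inhibitors was thus far above every library with them, and the fitted fall was 125-fold (log2 fold change -6.96, SE 0.29, adjusted p = 1.13e-11), the 4th largest absolute change among the 14723 genes. Egr2, known for macrophage maturation as well as for myelination by Schwann cells, went from 232, 369, 179 and 95.9 CPM to 1.81, 1.55, 2.39 and 2.02 CPM. The fall was 112-fold (log2 -6.81, SE 0.41, adjusted p = 2.27e-09) and was the 5th largest. Egr3 went from 41.8, 53.2, 18.9 and 12.0 CPM to 1.89, 0.259, 1.11 and 1.47 CPM, a 26.3-fold fall (log2 -4.71, SE 0.63, adjusted p = 1.68e-04). Nr4a1 went from 460, 923, 256 and 179 CPM to 9.38, 9.84, 14.1 and 17.9 CPM, a 35.5-fold fall (log2 -5.15, SE 0.41, adjusted p = 1.47e-07). In none of these 4 genes did the arms overlap. With the mouse as a block, 150 genes in place of 94 were called in this comparison over both directions, with the same number of members.

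Nr4a2 and Nr4a3 were low in both arms and their ranges overlapped. Nr4a2 was at 6.19, 6.10, 5.10 and 4.35 CPM without and at 3.79, 2.68, 2.47 and 5.61 CPM with inhibitors (log2 -0.58, SE 0.43, adjusted p = 0.835). Nr4a3 was at 1.09, 2.80, 1.49 and 2.69 CPM without and at 1.48, 1.64, 1.11 and 2.76 CPM with them (log2 -0.21, SE 0.56, adjusted p = 0.988). With 13 to 34 counts a library, smaller changes of Nr4a3 were not detectable at this depth. Neuronal markers summed to 73.4 to 167 CPM in Cell (-) Inhibitors-TRAP and to 44.6 to 152 in Cell (+) Inhibitors-TRAP, and microglial markers to 29737 to 34408 and 32174 to 33412, so these sums overlapped between the arms.

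**Figure D1:**
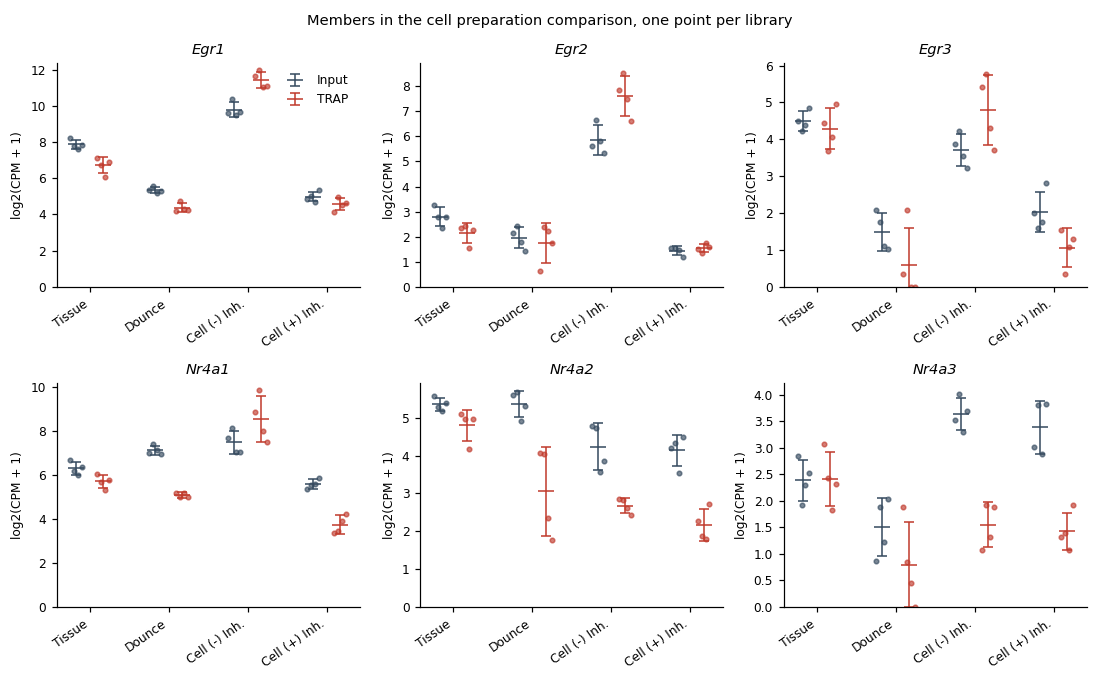
Level of each member in the cell preparation comparison, as log2(CPM + 1) on the vertical axis, for Input (dark) and TRAP (red) of the 4 preparations (4 mice each). Points are libraries, dashes the mean and bars the SD. Egr1, Egr2 and Nr4a1 peak in Cell (-) Inhibitors-TRAP and fall below Tissue with inhibitors in the mean, while Nr4a2 is highest in Tissue and Dounce-Input.

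Input of the same suspensions gave the same 4 calls (0.311% of all genes were called lower, 49 of 15753). Egr1 went from 735 to 1349 CPM (range of 4 mice) to 25.2 to 39.3 CPM, a 29.7-fold fall (log2 -4.89, SE 0.21, adjusted p = 2.35e-11). Egr2 went from 39.1 to 101 CPM to 1.28 to 1.95 CPM, a 34.8-fold fall (log2 -5.12, SE 0.33, adjusted p = 4.46e-09). The falls of Egr3 (3.74-fold, log2 -1.90, SE 0.34, adjusted p = 0.00763) and Nr4a1 (3.93-fold, log2 -1.97, SE 0.21, adjusted p = 1.21e-05) were smaller there. The Egr3 call in Input was lost with the mouse as a block (log2 -1.95, SE 0.41, adjusted p = 0.280), which left 3 members called. Nr4a2 (log2 -0.16, SE 0.26) and Nr4a3 (log2 -0.23, SE 0.32) were again not called, each with an adjusted p of 1. Whether a fall differed between TRAP and Input was tested as an interaction, which was called for Egr1 (log2 -2.09, SE 0.32, adjusted p = 3.77e-04) and Nr4a1 (log2 -3.19, SE 0.45, adjusted p = 1.23e-04), against 0.145% of all genes (23 of 15894). For Egr2 (log2 -1.70, SE 0.56, adjusted p = 0.467) and Egr3 (log2 -2.82, SE 0.72, adjusted p = 0.141) it was not called. DESeq2 called the interaction for Egr3 as well (log2 -2.84, adjusted p = 0.0217).

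The enzymatic suspension was next compared with tissue that had not been dissociated. In the cell preparation comparison, the suspensions with and without inhibitors came from other mice than Tissue. Preparation and set of mice thus cannot be told apart in their contrasts with Tissue. In TRAP of Cell (-) Inhibitors against Tissue, 3 members were called higher, against 22.3% of all genes, and 2 lower, against 30.8%. With more than 1 in 2 genes called in one direction or the other, the count of members says little and the sizes say more. Egr1 rose from 139, 105, 67.5 and 119 CPM in Tissue-TRAP (mice 946 to 949) to the values above, a 27.1-fold difference (log2 4.76, SE 0.26, adjusted p = 8.61e-12). Egr2 rose from 4.04, 4.41, 1.93 and 3.78 CPM, by 61.5-fold (log2 5.94, SE 0.39, adjusted p = 1.11e-10). Nr4a1 rose from 64.5, 51.1, 39.4 and 53.3 CPM, by 8.72-fold (log2 3.12, SE 0.37, adjusted p = 4.16e-07). For these 3 genes the lowest suspension library was above the highest Tissue library.

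Egr3 behaved otherwise, with Tissue-TRAP at 20.8, 11.9, 15.8 and 30.2 CPM overlapping the range of the suspension (log2 0.67, SE 0.50, adjusted p = 0.233). Nr4a2 was lower in the suspension, where Tissue-TRAP stood at 33.2, 30.2, 17.1 and 30.3 CPM (log2 -2.35, SE 0.42, adjusted p = 5.54e-05), with no overlap. Nr4a3 was also called lower, from 7.40, 4.41, 2.53 and 3.96 CPM (log2 -1.18, SE 0.55, adjusted p = 0.0599), but its groups overlapped, and the call was lost without Cell (-) Inhibitors mouse 1361 (log2 -0.98), without mouse 156 (-1.06), without Tissue mouse 946 (-0.84) and by limma on the authors' log2 values (-1.14). Neuronal markers moved with these results, from 5435 to 6633 summed CPM in Tissue-TRAP to 73.4 to 167 in the suspension. Microglial markers rose, from 4845 to 5604 summed CPM in Tissue-TRAP to 29737 to 34408 in the suspension. The part of these sums in the rises and falls of the members was not tested.

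In Input, the same contrast called 4 members higher (25.6% of all genes) and 1 lower (19.1%). Egr1 was 3.9-fold higher (log2 1.96, SE 0.19), from 197 to 304 CPM, and Egr2 9.84-fold higher (log2 3.30, SE 0.29), from 4.11 to 8.64 CPM. Nr4a1 was 2.37-fold higher (log2 1.25, SE 0.21, adjusted p = 2.5e-05), from 62.5 to 101 CPM to 131 to 278 CPM, and without mouse 1362 its log2 change of 0.99 fell under the fold threshold. Nr4a3, which was lower in TRAP, was 2.64-fold higher in Input (log2 1.40, SE 0.34, adjusted p = 0.00112), from 2.77 to 6.13 CPM to 8.80 to 15.2 CPM, with no overlap. Nr4a2 was 2.11-fold lower (log2 -1.07, SE 0.25, adjusted p = 8.98e-04), a call lost without suspension mouse 156 (-0.88), suspension mouse 157 (-0.94) or Tissue mouse 946 (-0.99). Egr3 (log2 -0.80, SE 0.31, adjusted p = 0.0284) was under the fold threshold and passed it without mouse 1362 (-1.01). Marker sums moved with this contrast, those of neurons from 7115 to 7298 CPM in Tissue-Input to 349.8 to 654 CPM in the suspension, those of microglia from 244 to 271 CPM to 4518 to 7934 CPM, those of endothelium from 65 to 70.6 CPM to 1103 to 1439 CPM and those of blood (5 of 6 found) from 104 to 187 CPM to 3494 to 8117 CPM. Their part in the result was not tested.

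Against Tissue, the suspension made with inhibitors was below and not at the tissue level for most members. In TRAP of Cell (+) Inhibitors against Tissue, 0 members were called higher and 5 lower (31.2% of all genes were called lower). Egr3 was 16.5-fold lower (log2 -4.04, SE 0.62, adjusted p = 1.17e-05), Nr4a2 7.62-fold (log2 -2.93, SE 0.43), Egr1 4.61-fold (log2 -2.20, SE 0.24, adjusted p = 1.26e-07), Nr4a1 4.07-fold (log2 -2.03, SE 0.38, adjusted p = 9.57e-05) and Nr4a3 2.62-fold (log2 -1.39, SE 0.55, adjusted p = 0.0315). All 4 inhibitor libraries were below all 4 Tissue libraries for Egr1, Egr3, Nr4a1 and Nr4a2. The Nr4a3 call was lost without Tissue mouse 946 (log2 -1.05) and by limma (-1.36). Egr2 was not called (log2 -0.86, SE 0.45, adjusted p = 0.0889), and without Tissue mouse 948 it was (-1.06). Neuronal markers again moved with this contrast, from 5435 to 6633 summed CPM in Tissue-TRAP to 44.6 to 152. Microglial markers moved from 4845 to 5604 summed CPM in Tissue-TRAP to 32174 to 33412. The part of these sums was not tested.

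Input of Cell (+) Inhibitors against Tissue had 4 members lower (20.2% of all genes) and 1 higher (25.5%). Egr1 was 7.62-fold lower (log2 -2.93, SE 0.20), Egr3 6.50-fold (log2 -2.70, SE 0.34), Egr2 3.54-fold (log2 -1.82, SE 0.35) and Nr4a2 2.36-fold (log2 -1.24, SE 0.26). Nr4a3 was again the exception, being 2.25-fold higher (log2 1.17, SE 0.34, adjusted p = 0.00455), with 6.36 to 13.1 CPM against 2.77 to 6.13 CPM in Tissue-Input. Nr4a1 was lower by less than the threshold (log2 -0.73, SE 0.21, adjusted p = 0.00443). Nr4a3 thus stood above Tissue-Input in both enzymatic suspensions, with and without inhibitors. Both arms are set against the same Tissue libraries. In Input of Cell (+) Inhibitors the sums were 251 to 735 CPM for neuronal, 6242 to 9090 CPM for microglial, 1028 to 1716 CPM for endothelial and 3899 to 9965 CPM for blood markers, against the Tissue-Input sums above, and their part was not tested.

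**Figure D2:**
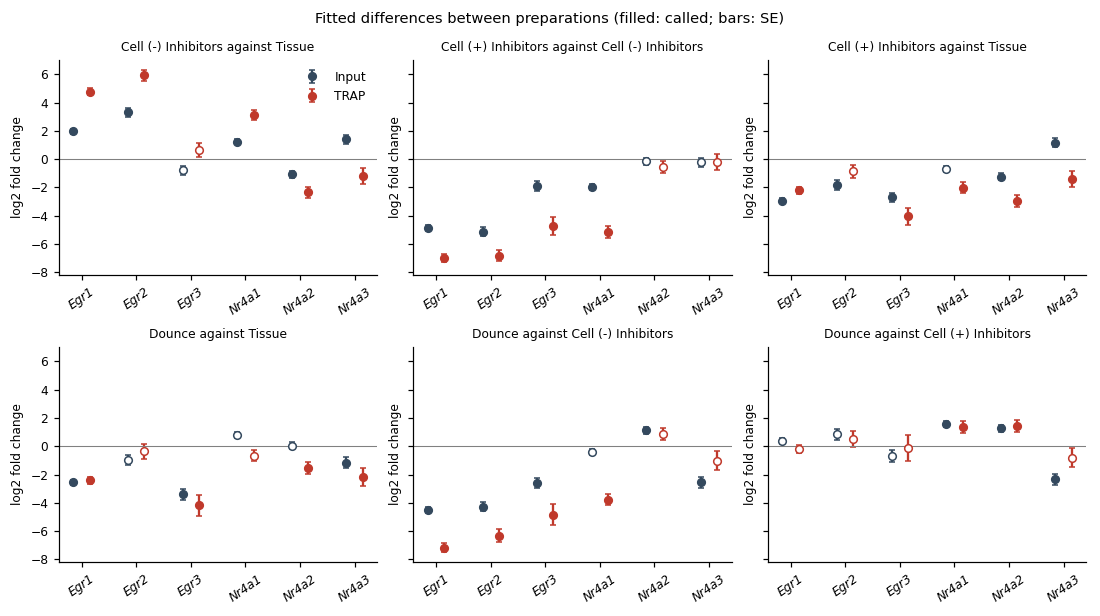
Log2 fold change (vertical axis) of each member in 6 contrasts of the cell preparation comparison, for Input (dark) and TRAP (red). Points are edgeR estimates, bars their SE, and filled points are called (adjusted p under 0.1, fold above 2). Egr1, Egr2, Egr3 and Nr4a1 are filled and negative for Cell (+) against Cell (-) Inhibitors in both fractions, and Nr4a2 and Nr4a3 are open and near 0.

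The cold mechanical preparation was compared in the same way. The Dounce mice were others than those of Tissue and of the enzymatic suspensions. Preparation and set of mice thus cannot be told apart in any contrast with Dounce. In TRAP of Dounce against Tissue, 4 members were called lower (27.1% of all genes) and 0 higher. Egr1 stood at 17.6, 25.8, 19 and 18.2 CPM in Dounce-TRAP of mice 179 to 182, 5.29-fold below Tissue-TRAP (log2 -2.40, SE 0.26, adjusted p = 1.51e-07), with no overlap. Egr3 had 1, 16, 0 and 0 counts in these mice, and its fitted difference (log2 -4.16, SE 0.74, adjusted p = 6.3e-05) went to -7.43 without mouse 180, where 1 count in all remained, so that its size is set by the fit and is no estimate of a fold. Nr4a2 was lower at 15.7, 15.6, 4.10 and 2.38 CPM (log2 -1.51, SE 0.42, adjusted p = 0.00387), and the 4 libraries split into a higher and a lower pair. Nr4a3, with 10, 4, 1 and 0 counts, was lower too (log2 -2.19, SE 0.66, adjusted p = 0.00634), and at -3.39 without mouse 179. Egr2 (log2 -0.37, SE 0.53) and Nr4a1 (log2 -0.66, SE 0.38, adjusted p = 0.126) were not called. Nr4a1 at 30.5 to 35.8 CPM lay just below the 39.4 to 64.5 CPM of Tissue-TRAP. Dounce-TRAP held 956 to 1725 summed CPM of neuronal markers, between Tissue-TRAP and the enzymatic suspensions and had the lowest depth. Its microglial markers summed to 26421 to 32709 CPM, against 4845 to 5604 CPM in Tissue-TRAP. The study also describes low RNA integrity for the Dounce libraries. It reports coverage more biased toward the poly(A) end in Tissue and Dounce than in the enzymatic suspensions. The part of these differences in the results was not tested.

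Dounce-TRAP was also set against the suspensions. Against Cell (-) Inhibitors, 4 members were called lower (8.02% of all genes). These were Egr1 by 143-fold (log2 -7.16, SE 0.30, adjusted p = 8.82e-12), Egr2 by 79.4-fold (log2 -6.31, SE 0.44), Egr3 (log2 -4.84, SE 0.73, and -8.10 without Dounce mouse 180) and Nr4a1 by 13.8-fold (log2 -3.78, SE 0.40). For Egr1, Egr2, Egr3 and Nr4a1 no library of the one group reached the other. Nr4a2 (log2 0.84, SE 0.43) was called without Dounce mouse 181 (1.07) or mouse 182 (1.16), and Nr4a3 (log2 -1.01, SE 0.67) without mouse 179 (-2.17) and by limma (-1.87, adjusted p = 0.0421). Against Cell (+) Inhibitors, 2 members were called higher in Dounce-TRAP (21.5% of all genes), Nr4a1 by 2.58-fold (log2 1.37, SE 0.40, adjusted p = 0.00724) and Nr4a2 by 2.68-fold (log2 1.42, SE 0.44, adjusted p = 0.0115). Nr4a1 did not overlap, with 9.38 to 17.9 CPM under inhibitors. Nr4a2 did overlap, and limma did not call it (log2 0.95). Egr1 (log2 -0.20, SE 0.26, adjusted p = 0.540) and Egr2 (log2 0.50, SE 0.57, adjusted p = 0.484) were not called between these 2 preparations. Egr3 (log2 -0.12, SE 0.91) was called without Dounce mouse 180 (-3.39), and Nr4a3 (log2 -0.80, SE 0.68) without mouse 179 (-1.97) and by limma (-1.66, adjusted p = 0.0679).

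In Input, Dounce against Tissue called 3 members lower (21.4% of all genes). Egr3 was 10.5-fold lower (log2 -3.39, SE 0.37, adjusted p = 1.08e-07), with 1.02 to 3.20 CPM against 17.7 to 28.1 CPM, and Egr1 was 5.88-fold lower (log2 -2.56, SE 0.20, adjusted p = 5.81e-10), with 35.9 to 46.7 CPM against 197 to 304 CPM. Nr4a3 was 2.24-fold lower (log2 -1.16, SE 0.39, adjusted p = 0.0120), a call lost without Dounce mouse 179 (-0.87) or Tissue mouse 946 (-0.95). Egr2 missed the fold threshold by little (log2 -0.98, SE 0.34, adjusted p = 0.0131). It passed with DESeq2 size factors (-1.04), with DESeq2 (-1.07), with limma (-1.09), with only these groups in the fit (-1.10) and without Dounce mouse 179 (-1.04), Dounce mouse 180 (-1.24), Tissue mouse 947 (-1.0) or Tissue mouse 948 (-1.14). Nr4a1 was higher by less than the threshold (log2 0.83, SE 0.21, adjusted p = 0.00144), and Nr4a2 was at 29.1 to 50.0 CPM in Dounce-Input and 35.4 to 46.9 CPM in Tissue-Input (log2 0.04, SE 0.25). Dounce-Input kept 3352 to 3718 summed CPM of neuronal markers, against 7115 to 7298 in Tissue-Input and 251 to 735 in Input of the enzymatic suspensions. Microglial markers summed to 1594 to 2561 CPM in Dounce-Input and blood markers to 8661 to 10172 CPM. The part of these sums in the Dounce-Input results, here and against the suspensions, was not tested.

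Against Input of Cell (-) Inhibitors, Dounce-Input had 4 members lower (28.1% of all genes) and 1 higher (28.8%). Egr1 was 22.9-fold lower (log2 -4.52, SE 0.21), Egr2 19.4-fold (log2 -4.28, SE 0.32), Egr3 6.06-fold (log2 -2.60, SE 0.37) and Nr4a3 5.90-fold (log2 -2.56, SE 0.38, adjusted p = 4.55e-06). Nr4a2 was 2.17-fold higher (log2 1.12, SE 0.26), a call lost without suspension mouse 156 (0.93) or mouse 157 (0.98). Against Input of Cell (+) Inhibitors, 2 were higher (29.0% of all genes) and 1 lower (27.9%). Nr4a1 was 2.93-fold higher in Dounce-Input (log2 1.55, SE 0.21, adjusted p = 1.62e-06), with 124 to 168 CPM against 39.9 to 58 CPM, and Nr4a2 2.43-fold higher (log2 1.28, SE 0.26). Nr4a3 was 5.03-fold lower (log2 -2.33, SE 0.38). Egr2 (log2 0.84, SE 0.38) was called without Dounce mouse 182 (1.01) and Egr3 (log2 -0.69, SE 0.40) without Dounce mouse 179 (-1.05).

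In the sort comparison, a separate set of suspensions was compared with Tissue from the same mice. In Cell-TRAP against Tissue-TRAP, 3 members were called higher (25.1% of all genes) and 2 lower (29.3%). The Tissue mice are those of the cell preparation comparison, so the contrasts with Tissue in the 2 comparisons are not independent. Egr1 was at 112, 93.6, 65.8 and 94.8 CPM in Tissue-TRAP and at 3054, 2253, 1755 and 1757 CPM in Cell-TRAP of mice 946 to 949, 24.1-fold higher (log2 4.59, SE 0.24, adjusted p = 5.37e-15). Egr2 went from 3.38, 2.42, 1.62 and 3.07 CPM to 232, 121, 77.6 and 92.0 CPM, 50.1-fold higher (log2 5.65, SE 0.40, adjusted p = 2.43e-12). Nr4a1 went from 48.7, 42.4, 32.1 and 43.2 CPM to 321, 261, 112 and 125 CPM, 4.92-fold higher (log2 2.30, SE 0.40, adjusted p = 1.12e-05). The groups did not overlap for any of these 3, and mouse 946 was the highest of both groups for Egr1.

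Nr4a2 fell from 29.1, 24.2, 18.6 and 23.8 CPM to 6.71, 3.98, 1.55 and 1.63 CPM, 7.0-fold (log2 -2.81, SE 0.53, adjusted p = 3.94e-05). Nr4a3 fell from 4.61, 2.23, 1.87 and 3.63 CPM to 1.86, 0.876, 0.287 and 0.604 CPM (log2 -1.78, SE 0.63, adjusted p = 0.0119). Egr3 was at 12.9 to 21.6 CPM in Tissue-TRAP and at 13.9 to 51.4 CPM in Cell-TRAP (log2 0.68, SE 0.46, adjusted p = 0.176). Summed neuronal markers fell alongside, from 4524 to 5266 CPM in Tissue-TRAP to 103 to 294 CPM in Cell-TRAP, and were highest in Cell-TRAP mouse 946, which was also the highest Cell-TRAP library for all 6 members. Summed microglial markers rose, from 3959 to 4814 CPM in Tissue-TRAP to 26886 to 28692 CPM in Cell-TRAP. The part of these sums in the rises and falls of the members was not tested.

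**Figure D3:**
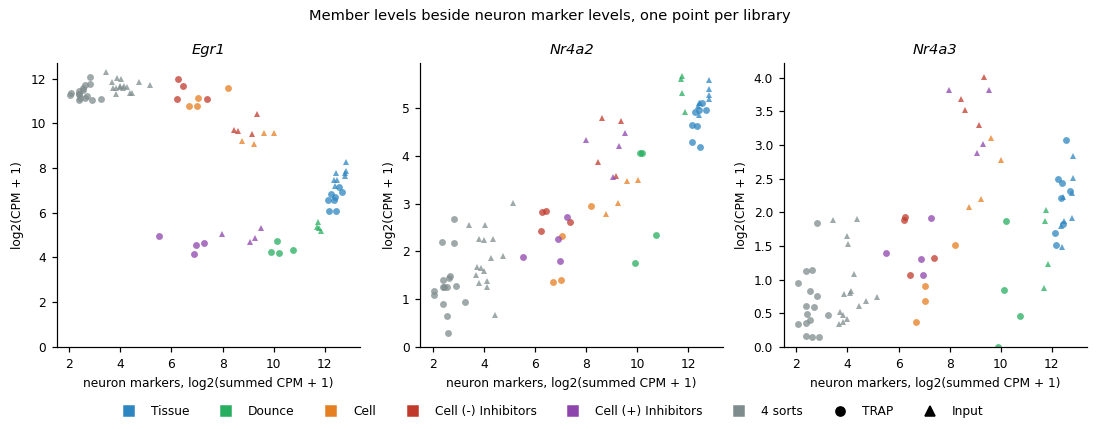
Level of Egr1, Nr4a2 and Nr4a3, as log2(CPM + 1), against the summed level of 6 neuronal markers in the same library, as log2(summed CPM + 1). Each point is one of the 80 libraries (circles TRAP, triangles Input, colours the preparation). Nr4a2 is highest in Tissue and Dounce-Input at the right, where the marker sum is 3352 or more, and Egr1 is highest in the sorts at the left, where the sum is at most 34.6, and in TRAP of the suspensions made without inhibitors.

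Input of the suspension called 2 members higher against Tissue-Input (28.5% of all genes) and 1 lower (17.5%). Egr1 was 3.71-fold higher (log2 1.89, SE 0.19), from 144 to 215 CPM to 535 to 759 CPM, and Egr2 7.06-fold higher (log2 2.82, SE 0.28), from 2.92 to 5.99 CPM to 25.7 to 41.3 CPM. Nr4a2 was 3.81-fold lower (log2 -1.93, SE 0.42, adjusted p = 3.33e-04), from 28.0 to 33.5 CPM to 5.90 to 10.3 CPM. Nr4a1 (log2 0.62, SE 0.36), Egr3 (log2 -0.60, SE 0.40) and Nr4a3 (log2 0.93, SE 0.59) were not called, although Nr4a3 again had the higher mean in the suspension (5.07 ± 2.06 CPM, SD, n = 4) than in Tissue-Input (2.65 ± 0.78 CPM, SD, n = 4). With the mouse as a block in edgeR, Nr4a1 (log2 0.43, SE 0.14, adjusted p = 0.0198), Egr3 (-0.75, SE 0.20, adjusted p = 0.00838) and Nr4a3 (0.76, SE 0.24, adjusted p = 0.0172) missed only the fold threshold. Here too the sums moved, from 5325 to 5703 CPM to 434 to 1036 CPM for neuronal, from 207 to 328 CPM to 4272 to 5684 CPM for microglial, from 46.1 to 59.0 CPM to 807 to 1544 CPM for endothelial and from 89.3 to 152 CPM to 2122 to 3228 CPM for blood markers, and their part was not tested.

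The sorted cells were compared with Tissue and with the unsorted suspension. All sorts came from other mice than Tissue and Cell, so sorting and the set of mice cannot be told apart in these contrasts. In TRAP, the mean of the 4 sorts against Tissue called 3 members higher (25.9% of all genes) and 2 lower (36.9%), with the same 4 Tissue-TRAP libraries as in the contrast of the suspension. Neuronal markers summed to 3.12 to 8.51 CPM in the sorts. Microglial markers summed to 31062 to 38404 CPM there, against 3959 to 4814 CPM in Tissue-TRAP. The part of these sums was not tested. The log2 differences were 4.87 for Egr1 (SE 0.23), 6.18 for Egr2 (SE 0.39), 3.23 for Nr4a1 (SE 0.38), -3.82 for Nr4a2 (SE 0.36) and -2.39 for Nr4a3 (SE 0.44). Egr3 (log2 0.92, SE 0.38, adjusted p = 0.0264) was under the fold threshold and passed it without Tissue mouse 949 (1.13). Against Cell-TRAP, 0 members were called higher in the sorts and 1 lower, Nr4a2 (log2 -1.01, SE 0.44, adjusted p = 0.0562), against 23.6% of all genes called lower. That call was lost by limma (-1.04), with only these groups in the fit (-0.96) and without any one of 10 libraries. Without Cell-TRAP mouse 946 it went to -0.45, and it lay between -0.99 and -0.94 without Cell-TRAP mouse 947, FACSAria mouse 69, 945 or 991, Tyto mouse 822, 823 or 991, autoMACS to Tyto mouse 73 or autoMACS mouse 66. Nr4a1 (log2 0.93, SE 0.32, adjusted p = 0.0150) passed the fold threshold without Cell-TRAP mouse 946 (1.25) or mouse 947 (1.07).

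Across the 4 sorts an F test called 0 members in TRAP (4.17% of all genes were called), and its smallest adjusted p was 0.240 for Nr4a3, which was called without autoMACS mouse 72 (largest log2 difference 2.70). None of the 6 had an unadjusted p under 0.05, and DESeq2 and limma also called 0. Egr1-TRAP stood at 2073 to 3088 CPM in autoMACS, 2349 to 2765 in autoMACS to Tyto, 2076 to 3472 in Tyto and 2163 to 4261 in FACSAria. Nr4a1-TRAP stood at 238 to 383, 319 to 354, 221 to 664 and 228 to 1000 CPM in the same order. The ranges of the sorts overlapped in both genes. FACSAria mouse 992 and Tyto mouse 945 were the highest of their groups for Egr1, Egr2, Egr3 and Nr4a1 in both TRAP and Input. Mouse 945 was also sorted by FACSAria and was not the highest there. In Input, the F test called Egr3 alone (7.42% of all genes), with a largest difference of 1.33 on the log2 scale and an adjusted p of 0.0667. Egr3 was at 9.98 to 36 CPM in autoMACS-Input, 31.4 to 39.9 in autoMACS to Tyto-Input, 25.5 to 93.4 in Tyto-Input and 27.9 to 109 in FACSAria-Input. The call was lost without autoMACS mouse 72 (1.08), without autoMACS mouse 73 (1.35) and with only the sorts in the fit (1.33, adjusted p = 0.128). The sorts share mice, namely 66, 67 and 73 between autoMACS and autoMACS to Tyto, and 69, 945 and 991 between Tyto and FACSAria, which the F test leaves out of account. No mouse links the one pair of sorts with the other, so that with the mouse as a block only the difference within each pair can be estimated. An F test over those 2 differences with the block, chosen after the data were seen, called 0 members in TRAP and in Input, where the larger of the 2 differences of Egr3 was 0.27 on the log2 scale (adjusted p = 0.844). It tests fewer differences than the F test across all sorts.

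**Figure D4:**
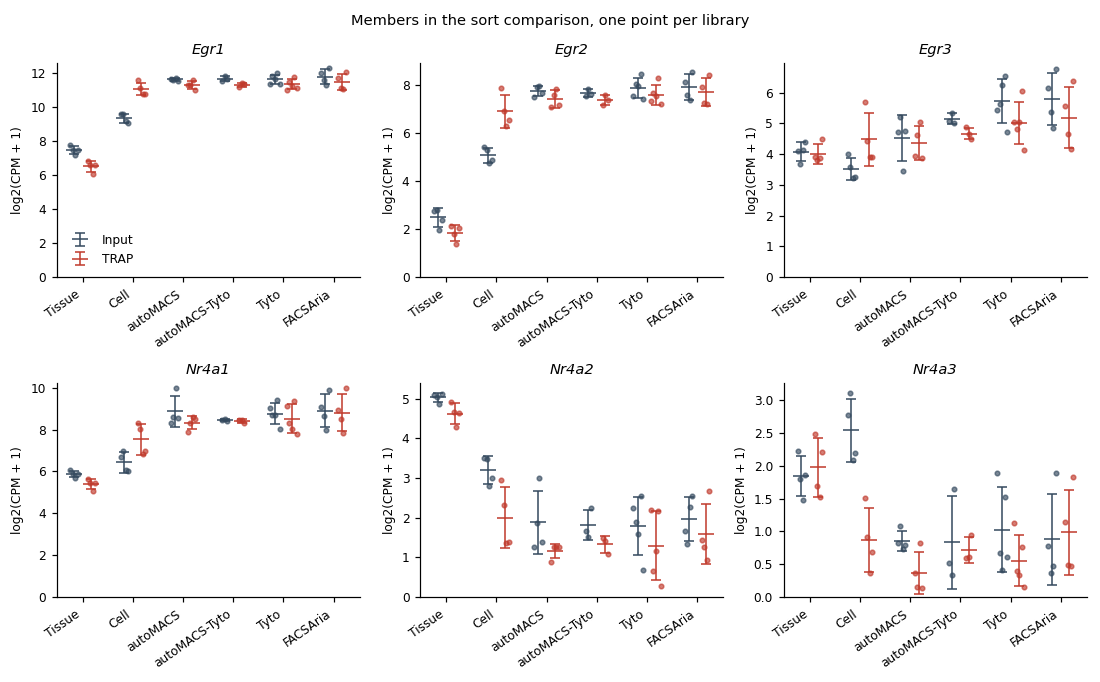
Level of each member in the sort comparison, as log2(CPM + 1) on the vertical axis, for Input (dark) and TRAP (red) of Tissue, Cell and the 4 sorts (3 to 5 mice each). Points are libraries, dashes the mean and bars the SD. Egr1, Egr2 and Nr4a1 in TRAP step up from Tissue to Cell, in Input they step up from Cell to the sorts, and Nr4a2 steps down.

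In Input, sorting against the unsorted suspension called all 6 members, 4 higher (17.1% of all genes) and 2 lower (34.7%). Egr2 was 6.83-fold higher (log2 2.77, SE 0.23, adjusted p = 1.18e-10), Nr4a1 5.15-fold (log2 2.36, SE 0.33), Egr1 5.07-fold (log2 2.34, SE 0.17) and Egr3 3.9-fold (log2 1.96, SE 0.35, adjusted p = 2.33e-05). Nr4a3 was 5.21-fold lower (log2 -2.38, SE 0.44, adjusted p = 3.36e-05) and Nr4a2 2.93-fold lower (log2 -1.55, SE 0.33, adjusted p = 1.56e-04). Every sorted Input library was above every Cell-Input library for Egr1, Egr2 and Nr4a1, and every sorted library was below every Cell-Input library for Nr4a3. Microglial markers summed to 4272 to 5684 CPM in Cell-Input and to 16178 to 35465 CPM in the sorted Input libraries, the lowest being autoMACS mouse 72, and the part of this shift in the results was not tested. Here too the mice of the sorts and of Cell differed.

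TRAP was compared with Input of the same preparation to see how the members divided between tagged ribosomes and all RNA. In Tissue, 0 of 6 were called by edgeR, DESeq2 or limma, against 11.1% of all genes by edgeR, with 1 at an unadjusted p under 0.05. Egr1 was lower in TRAP by less than the threshold (log2 -0.76, SE 0.21, adjusted p = 0.00363), and the others lay between -0.66 (Egr2, SE 0.40) and 0.42 (Nr4a3, SE 0.61). With the mouse as a block in edgeR, which pairs the fractions, 0 were called in Tissue as well. Egr1 (log2 -0.81, adjusted p = 4.70e-07), Egr2 (-0.68, adjusted p = 0.0121), Nr4a1 (-0.34, adjusted p = 0.00164) and Nr4a2 (-0.26, adjusted p = 0.0224) were then lower in TRAP, each by less than the fold threshold. In Cell all 6 were called, 4 higher in TRAP (16.8% of all genes) and 2 lower (30.9%). The log2 differences were 2.25 for Egr2 (SE 0.30), 2.03 for Egr1 (SE 0.21), 1.50 for Egr3 (SE 0.46) and 1.48 for Nr4a1 (SE 0.40), and -2.21 for Nr4a3 (SE 0.66) and -1.0 for Nr4a2 (SE 0.52, adjusted p = 0.0786). The Nr4a2 call sat at the fold threshold and was lost with no filter on low counts (-1.0) and without mouse 947 (-0.98), 948 (-0.89) or 949 (-0.83). By limma, Egr3 (0.82) and Nr4a1 (0.90) were not called and Nr4a2 was (-1.72). In the sorts 0 were called by edgeR, DESeq2 or limma, against 18.9% of all genes by edgeR and with 2 at an unadjusted p under 0.05, with differences from -0.67 (Nr4a2, SE 0.31, adjusted p = 0.0582) to -0.17 (Nr4a1, SE 0.20). Microglial markers summed to 207 to 328 CPM in Tissue-Input and 3959 to 4814 CPM in Tissue-TRAP. In Cell they summed to 4272 to 5684 CPM in Input and 26886 to 28692 CPM in TRAP. The part of this shift in the results was not tested.

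The same split was seen in the suspensions of the cell preparation comparison. In Cell (-) Inhibitors all 6 were called, 4 higher in TRAP (10.6% of all genes) and 2 lower (36.7%), with log2 differences of 1.89 for Egr2 (SE 0.30), 1.69 for Egr1 (SE 0.22), 1.36 for Egr3 (SE 0.44), 1.32 for Nr4a1 (SE 0.31), -1.79 for Nr4a2 (SE 0.35) and -2.49 for Nr4a3 (SE 0.45). Limma did not call Egr3 (1.31), and Nr4a1 was not called without mouse 1362 (0.96). In Cell (+) Inhibitors 4 were lower in TRAP (35.8% of all genes), Nr4a3 (log2 -2.48, SE 0.45), Nr4a2 (-2.22, SE 0.37), Nr4a1 (-1.88, SE 0.33) and Egr3 (-1.47, SE 0.57, adjusted p = 0.0234, lost without mouse 157 at -1.14). Nr4a1 and Egr3 thus stood above Input in TRAP without inhibitors and below it with them, while Nr4a2 and Nr4a3 stood below it in both arms. In Dounce 2 were lower in TRAP (26.7% of all genes), Nr4a1 (log2 -1.71, SE 0.33, adjusted p = 4.32e-05) and Nr4a2 (log2 -1.69, SE 0.37, adjusted p = 1.55e-04). Egr3 (log2 -0.53, SE 0.79) was called there without mouse 180 (-3.73) and by limma (-2.32), Nr4a3 (log2 -0.59, SE 0.63) without mouse 179 (-2.04) and by limma (-1.48), and Egr1 (log2 -0.62, SE 0.25) with the stricter filter (-1.05). Summed microglial markers were 4518 to 7934 CPM in Input and 29737 to 34408 CPM in TRAP of Cell (-) Inhibitors. They were 6242 to 9090 and 32174 to 33412 CPM with inhibitors, and 1594 to 2561 and 26421 to 32709 CPM in Dounce. The part of this shift between the fractions was not tested.

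Whether the rise from Tissue to Cell differed between the fractions was tested as an interaction, called for 4 members in the direction of TRAP (5.74% of all genes) and for 1 in the direction of Input (29.5%). The difference of differences was 2.91 on the log2 scale for Egr2 (SE 0.50, adjusted p = 4.48e-06), 2.79 for Egr1 (SE 0.29, adjusted p = 2.54e-10), 1.76 for Nr4a1 (SE 0.57, adjusted p = 0.00767) and -2.63 for Nr4a3 (SE 0.90, adjusted p = 0.0122). That of Egr3 (1.37, SE 0.64, adjusted p = 0.0653) was lost with DESeq2 size factors (1.05), with DESeq2 (1.05), with limma (0.81), with the stricter filter (1.03), without Cell mouse 946 (0.93) and without Tissue mouse 946 (1.30), 947 (1.22), 948 (1.10) or 949 (1.24). Nr4a2 was not called (-0.79, SE 0.70, adjusted p = 0.336), and with the mouse as a block it missed only the fold threshold (-0.86, SE 0.32, adjusted p = 0.0283). Nr4a3 was called lower in Cell-TRAP than in Tissue-TRAP and had a positive difference in Input that was not called, and Egr3 had opposite signs in the fractions with neither called. Nr4a3 had a mean of 0.91 ± 0.68 CPM in Cell-TRAP against 5.07 ± 2.06 CPM in Cell-Input (SD, n = 4 each). The cell types behind its Input level were not tested. Summed markers that were higher in Cell-Input than in Cell-TRAP were those of oligodendrocytes (10235 to 15274 against 438 to 639 CPM), their progenitors (389 to 540 against 21.1 to 29.3), astrocytes (4667 to 5964 against 912 to 1035), blood (2122 to 3228 against 41.4 to 101), neurons (434 to 1036 against 103 to 294), and pericytes and smooth muscle (4 of 5 found, 184 to 258 against 57.2 to 84.2). Those of microglia (4272 to 5684 against 26886 to 28692) and border macrophages (122 to 265 against 703 to 1841) were lower in Cell-Input. Those of endothelium (807 to 1544 against 705 to 719) lay close together, and with the fractions scaled apart their order is not settled.

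Among themselves the members fell on a wide scale of levels. Per kilobase of exon, Egr1 averaged 651 CPM in Cell (-) Inhibitors-TRAP, Nr4a1 130, Egr2 64.5, Egr3 7.14, Nr4a2 1.34 and Nr4a3 0.337. In Tissue-TRAP of the same comparison the order was Egr1 (24), Nr4a1 (14.8), Nr4a2 (6.83), Egr3 (4.46), Egr2 (1.04) and Nr4a3 (0.764), so Egr2 moved from the fifth place to the third and Nr4a2 from the third to the fifth. Over the means of the 20 groups of both comparisons, on log2(CPM + 1) centred within each table, Pearson's r was 0.97 between Egr1 and Egr2, 0.91 between Egr2 and Nr4a1, 0.78 between Egr1 and Egr3, 0.59 between Nr4a2 and Nr4a3 and -0.68 between Egr2 and Nr4a2. These are descriptions over groups that share mice and cell makeup.

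Of 15412 genes, those most like each member over the same 20 groups were as follows. Egr1 was most like Fosb (r = 0.99), an AP-1 subunit, and Egr2. Egr2 was most like Fos (0.99), another AP-1 subunit, and Cxcl2 (0.97), a chemokine. Egr3 was most like Gadd45b (0.89), a stress-induced regulator of MAP kinase signalling, and Zswim4 (0.80). Nr4a1 was most like Ptgs2 (0.93), the inducible cyclooxygenase, and Dusp2 (0.92), a phosphatase of MAP kinases. Nr4a2 was most like Efna5 (0.99), an ephrin ligand, and Cxxc4 (0.98), an inhibitor of Wnt signalling. Nr4a3 was most like Serpinb1b (0.97) and Spa17 (0.97).

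A fixed list of 29 genes that act with the members was measured in full. It holds Egr4 and the NAB corepressors, SRF with its partners and coactivators, the CREB family with its coactivators, the ERK cascade, and the RXR receptors. Between Cell (+) and Cell (-) Inhibitors 0 of 29 were called by edgeR, in TRAP and in Input alike, beside the 93 and 49 genes called lower over the whole tables. In Cell (-) Inhibitors-TRAP against Tissue-TRAP 6 were higher and 7 lower, beside 22.3% and 30.8% of all genes. The largest were Egr4, the fourth Egr gene (log2 -4.76, SE 0.62, adjusted p = 1.52e-06), Mkl2, an SRF coactivator (-2.52, SE 0.17), Crtc1, a CREB coactivator (-2.38, SE 0.17), and Ep300, a histone acetyltransferase that works with CREB (2.14, SE 0.13). Egr4 was lower in TRAP of every suspension set against Tissue, at -5.58 in Cell (SE 0.57), -6.18 in Cell (+) Inhibitors (SE 0.71) and -4.16 in Dounce (SE 0.67). The same Tissue mice served all these contrasts, and only Cell came from those mice. Summed neuronal markers fell as well, from 4524 to 6633 CPM in Tissue-TRAP to 103 to 294 in Cell, 73.4 to 167 in Cell (-) Inhibitors, 44.6 to 152 in Cell (+) Inhibitors and 956 to 1725 in Dounce. Microglial markers rose, as given above. The part of these sums was not tested. In Cell-TRAP against Tissue-TRAP 10 were higher and 6 lower (25.1% and 29.3% of all genes), in Cell (+) Inhibitors-TRAP 8 and 7 (21.6% and 31.2%), and in Dounce-TRAP 6 and 10 (23.2% and 27.1%). Srf itself was not called in Cell (-) Inhibitors-TRAP against Tissue-TRAP (log2 -0.05, SE 0.14).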

How the data were processed

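RNA-seq libraries of 80 samples were analysed from 2 gene tables, apart from an alternative on earlier counts described below. The authors aligned directional poly(A) reads to mm10 in Strand NGS, removed duplicates and deposited, per gene and library, raw values and normalized values. The raw values are estimated counts deposited by the authors (33.2% exactly whole in the sort comparison and 20.8% in the cell preparation comparison, zeros included) and were rounded before testing. The normalized values are on a log2 scale, made by the authors with DESeq2 normalization, and served only as an alternative. Columns of the authors' own comparisons were not used.

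Genes were kept where all samples of some group held over 5 counts, and were fitted by edgeR 4.0.16 (R 4.3.3) quasi-likelihood tests with TMM scaling, all groups of a fraction and comparison together, and TRAP and Input together for contrasts between them. Benjamini-Hochberg adjustment ran over all genes tested, and calls needed an adjusted p under 0.1 and a fold above 2. Standard errors were derived from the log2 fold change and its F statistic. Alternatives were DESeq2 1.42.0 size factors in edgeR, DESeq2, limma 3.58.1 on the log2 values, no filter, a minimum of 10 counts, fits of the compared groups alone, each library left out, the mouse as a block and, added after the data were seen, an F test within the pairs of sorts that share mice. Contrasts among Tissue and the inhibitor arms within a fraction were also fitted on earlier deposited counts of these libraries, which hold no Dounce libraries. The scripts were tested on simulated counts.

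Mouse numbers in the labels mark one animal, so same-numbered libraries are paired. Their deviations from the group means correlated at 0.11 to 0.45 between the inhibitor arms in TRAP and at -0.043 to 0.098 in Input. The genes named are the 6 members, the 29 genes that act with them (the 4 largest changes) and, for each member, the 2 genes with the highest correlation over group means. The members, lists and tests were chosen with earlier results of these data known. CPM per kilobase used GENCODE exon lengths. Library totals were 2471448 to 20168116 counts.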

Additional observations from a re-analysis of the deposited data

Results flagged for a closer look

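Of 108 sets of values (1 member in 1 group of at least 4 libraries) searched for a library far from the rest, 5 had one, and chance alone gives about 1 in 20. Egr1 in Cell (-) Inhibitors-Input was 1349 CPM in mouse 1362, with the others at 735 to 822. Egr3 in Dounce-TRAP was 3.19 CPM in mouse 180, with the others at 0 to 0.267. Egr3 in Tissue-TRAP of the sort comparison was 21.6 CPM in mouse 949, with the others at 12.9 to 14. Nr4a1 in autoMACS-Input was 1005 CPM in mouse 72, the library with the lowest microglial marker sum of the sorts, with the others at 321.6 to 391.8. Nr4a2 in autoMACS-TRAP was low, 0.855 CPM in mouse 66, with the others at 1.37 to 1.41.

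The change from Tissue to Cell differed between TRAP and Input by the interaction test for Egr1 (2.79 on the log2 scale), Egr2 (2.91), Egr3 (1.37), Nr4a1 (1.76) and Nr4a3 (-2.63). The call of Egr3 was lost by DESeq2, with DESeq2 size factors, by limma, with the stricter filter, without Cell mouse 946 and without any one of the 4 Tissue mice. The change with inhibitors differed between the fractions for Egr1 (-2.09) and Nr4a1 (-3.19).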

How the results depend on the processing

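Of the alternatives other than leaving out a library, 982 of the members' values kept their direction and side of the threshold, 16 were no longer called, 10 became called and 6 changed sign. With at least 10 counts in every sample, low members dropped out of the test. In TRAP the calls went from 5 to 3 (Cell and sorts against Tissue), 1 to 0 (sorts against Cell), 5 to 2 (both inhibitor arms against Tissue), 4 to 2 (between the arms, and Dounce against Cell (-) Inhibitors), 4 to 1 (Dounce against Tissue) and 2 to 1 (Dounce against Cell (+) Inhibitors). In Input they went from 5 to 3 (Cell (+) Inhibitors against Tissue, and Dounce against Cell (-) Inhibitors) and 3 to 1 (Dounce against Tissue). Between fractions they went from 6 to 2 without and 4 to 1 with inhibitors, and from 5 to 3 in the interaction with Cell against Tissue. With limma, calls went from 1 to 0 in TRAP of sorts against Cell and from 2 to 4 in TRAP against Input of Dounce. With only the compared groups fitted, they went from 1 to 0 in TRAP of sorts against Cell and in the Input F test.

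With each library left out, calls ranged from 0 to 1 in TRAP of sorts against Cell and in both F tests, from 2 to 4 in Input of Dounce against Tissue, from 2 to 3 in TRAP of Dounce against Cell (+) Inhibitors and in TRAP against Input of Dounce, from 3 to 4 in TRAP against Input with inhibitors, and from 4 to 6 in TRAP of Cell (+) Inhibitors against Tissue. They also ranged from 3 to 4 in Input of Dounce against Cell (+) Inhibitors. The range was 4 to 5 in both fractions for Cell (-) Inhibitors against Tissue and for Dounce against Cell (-) Inhibitors. It was also 4 to 5 in the interaction with Cell against Tissue. Calls ranged from 5 to 6 in TRAP of sorts against Tissue and in TRAP against Input of Cell and of Cell (-) Inhibitors. The sign changed only in members that were not called. These were Nr4a3 in TRAP of sorts against Cell (-0.91 to 0.037 on the log2 scale with libraries left out), Egr3 in TRAP of Dounce against Cell (+) Inhibitors (-3.39 to 0.25), Nr4a2 in Input between the inhibitor arms (-0.35 to 0.034), Nr4a2 in Input of Dounce against Tissue (-0.078 to 0.17, and -0.018 with DESeq2 size factors, -0.023 with DESeq2, -0.053 with only these groups), Nr4a3 in the interaction with inhibitors (-0.15 to 0.19) and, in TRAP against Input of Dounce, Egr3 (-3.73 to 0.13), Nr4a3 (-2.04 to 0.054) and Egr2 (-0.32 to 0.58, and -0.030 with DESeq2 size factors, -0.0079 with DESeq2, -0.26 with limma). The cause was not tested.

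With the mouse as a replicate block, the only member call that changed in the planned contrasts was that of Egr3 in Input between the inhibitor arms (-1.95, adjusted p = 0.280 by edgeR), taking the calls from 4 to 3. In the block over the pairs of sorts that share mice, chosen after the data were seen, calls in Input were 0 in place of 1 (112 of all genes called in place of 1169) and 0 in TRAP as before (259 in place of 624), with fewer differences tested. The calls over all genes moved by more than 1.5 times in TRAP between the arms (94 to 150), in TRAP against Input of the sorts (2994 to 1364) and in the interaction with inhibitors (23 to 48). DESeq2 size factors moved the median of all genes by -0.33 (TRAP, Cell against Tissue), -0.35 (TRAP, sorts against Tissue), -0.21 (Input, sorts against Cell) and -0.41 (TRAP against Input, Cell). They moved it by -0.32 in the interaction with Cell against Tissue, -0.23 in TRAP against Input of Dounce, 0.13 without and 0.12 with inhibitors. Depth limits Egr2, Egr3 and Nr4a3 most, with 2 to 21, 0 to 16 and 0 to 10 counts in the Dounce-TRAP libraries.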
